A study of Mus musculus with 12 samples.

Results

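Mouse embryos labelled as lacking both Lyl1 and Scl (DKO) were set against embryos labelled as lacking Scl alone (Scl KO). The only labelled difference between the groups was thus the state of Lyl1. The comparison used 6 of the 12 libraries of the series, 3 for each of these genotypes, and all genes of the count table. The other 6 libraries, 3 of Lyl1 KO and 3 of wild type (WT) embryos, entered the fit and are given where they bear on a value. By the labels, each library was made from a pool of embryos at embryonic day 9.5, and the tissue was embryo. Both groups carry the Scl mutation. The labels give neither the strain, the alleles (deletion, reporter or Cre line) nor the number of embryos in a pool, nor do they tell whether litters were kept apart between the numbered replicates. The titles call the libraries biological replicates, without saying how independent those of a group are. The p-values therefore cover only the variation among these libraries.

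Scl, encoded by Tal1, and Lyl1 belong to the basic helix-loop-helix family and act in blood cells. Both pair with E proteins to bind the E-box, a short DNA motif, and both assemble with Lmo2, Ldb1 and GATA factors into complexes that act at erythroid and megakaryocyte genes. Scl is required for the formation of blood in the embryo, whereas mice without Lyl1 survive. The pair are known to share part of their functions in adult stem cells and in the megakaryocyte lineage. The labels do not tell when or in which cells Scl was lost. The Scl KO libraries need not come from embryos that lacked Scl from the start.

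The libraries held 24324685 to 29112520 counts each. Their most abundant RNAs were those of megakaryocytes, the precursors of platelets. Itgb3, a platelet integrin subunit, averaged 7227 ± 1938 CPM in DKO and 12744 ± 1909 CPM in Scl KO, and Ppbp, a platelet chemokine precursor, 5265 ± 3064 CPM in DKO and 16677 ± 3402 CPM in Scl KO (SD, n = 3 each), where CPM are counts scaled to a library size of 1e+06. Of the markers of an embryo's other tissues, 5 of 19 heart and muscle genes, 4 of 21 neural genes, 4 of 20 yolk sac endoderm and liver genes, 5 of 20 decidua and trophoblast genes and 21 of 24 fibroblast and matrix genes had enough counts to be tested. The heart and muscle genes summed to 3.49 to 7.93 CPM in DKO and 1.89 to 3.39 CPM in Scl KO, with Nppa, Myh6, Myl7 and Nkx2-5 at 0 in all 6 libraries. Yolk sac endoderm and liver genes summed to 5.84 to 9.48 CPM in DKO and 12.5 to 13.6 CPM in Scl KO, neural genes to 27.1 to 89.1 CPM in DKO and 19.9 to 30.5 CPM in Scl KO, decidua and trophoblast genes to 179 to 254 CPM in DKO and 182 to 185 CPM in Scl KO, and fibroblast and matrix genes to 239 to 1066 CPM in DKO and 156 to 556 CPM in Scl KO. The absent heart genes go against the label of whole embryo tissue, and the groups are called by their genotypes only. Of the 3 DKO libraries, replicates 1 and 2 carried Y-linked transcripts at 239 and 265 CPM and almost no Xist, while DKO 3 and all 3 Scl KO libraries carried Xist at 534 to 740 CPM and Y-linked transcripts at no more than 0.214 CPM. Each of the 6 libraries carried 1 of these marks and almost none of the other. The labels do not give the sex, and whether a library held more than 1 embryo was not tested. These sex-linked marks were thus unequal between the groups. Calls with a term for Y-linked transcripts, with autosomal genes alone and among the libraries with Xist are given with the counts of called genes.

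Lyl1 RNA (chromosome 8, 84701457 to 84704715, GRCm38) was measured at 88.3, 108 and 56.5 CPM in the DKO libraries, against 210.3, 198 and 118 CPM in the Scl KO libraries. All DKO libraries lay below all Scl KO libraries, with a log2 fold change of -1.06 ± 0.24 and an edgeR adjusted p of 0.0097. Reads over the gene remained in DKO at about the level of Lyl1 KO, where they averaged 87.7 ± 2.46 CPM, against 181 ± 28.5 CPM in WT (SD, n = 3 each). Tal1 stood at 100.4, 100.1 and 77.7 CPM in DKO and at 118, 117 and 93.4 CPM in Scl KO. These ranges overlapped and the gene did not pass the test (log2 fold change -0.24 ± 0.14, edgeR adjusted p = 0.26). Tal1 averaged 579 ± 39 CPM in Lyl1 KO and 572 ± 65.5 CPM in WT. Tal1 was thus lower in both groups labelled as lacking Scl, and reads over the gene remained in both. Lyl1 means were lower in both groups labelled as lacking Lyl1, but Lyl1 KO against WT did not pass the test (edgeR adjusted p = 0.286), nor did DKO against Scl KO in a fit of those 6 libraries alone (edgeR adjusted p = 0.0545).

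Of 15399 genes tested, 2947 (19.1%) passed an adjusted p of 0.05 between DKO and Scl KO in edgeR's quasi-likelihood test. The DKO level was higher for 1289 of them (8.37% of the genes tested) and lower for 1658 (10.8%). A change of more than 2-fold was seen for 540 that rose (3.51% of the genes tested) and 690 that fell (4.48%), and of more than 8-fold for 102 that rose (0.662%) and 83 that fell (0.539%). The median over all genes was 0.03 on the log2 scale. The 20 most abundant genes took 8.73 to 10.6% of the counts in DKO and 12.4 to 14.2% in Scl KO, and the scaling factors for composition (TMM) were 1.14 to 1.30 in DKO and 0.95 to 1.08 in Scl KO. On plain library totals without these factors the median shifted to 0.33, and 79.4% of the calls were then higher in DKO, against 43.7% with them. Among libraries with Xist alone (DKO 3 against the 3 Scl KO libraries), 750 genes rose and 1534 fell. With the presence of Y-linked transcripts as a term 797 rose and 1292 fell, and with autosomal genes alone 1202 rose and 1632 fell. Leaving out 1 library at a time gave 1645 to 3222 calls, fewest without Scl KO 1 (1645) and Scl KO 2 (1692), and without DKO 2 the rises numbered 815. With the replicate number as a term, 1694 genes rose and 2028 fell.

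**Figure D1:**
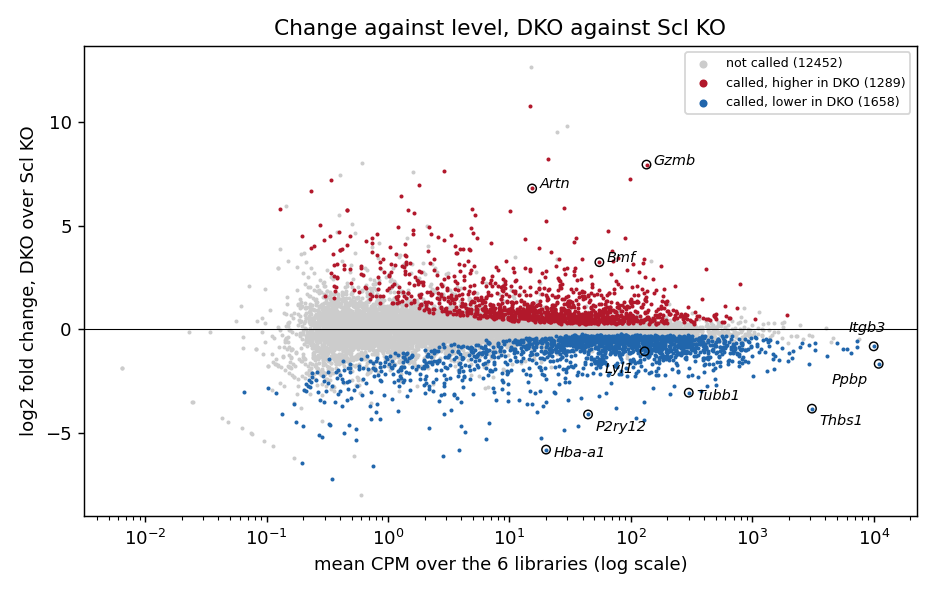
Each point is 1 of the genes tested, placed by its mean CPM over the 6 libraries (horizontal axis, log scale) and its log2 fold change of DKO over Scl KO (vertical axis), with called genes in red (higher in DKO) and blue (lower in DKO). Itgb3, Ppbp and Thbs1, at the abundant end on the right, lie below 0, and Gzmb and Artn are among the highest points.

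The gene with the smallest adjusted p among the genes chosen by rule was Thbs1, which encodes thrombospondin 1, an adhesive protein stored in platelet alpha granules. It stood at 412, 432 and 378 CPM in the DKO libraries, against 7454, 5655 and 4251 CPM in the Scl KO libraries. All DKO values were within 1.14-fold of each other, and the highest was 9.85 times lower than the lowest Scl KO value (log2 fold change -3.83 ± 0.22, edgeR adjusted p = 4.76e-06). In Lyl1 KO the gene averaged 20565 ± 1374 CPM, against 19748 ± 1582 CPM in WT (SD, n = 3 each), where it was the most abundant RNA of both groups.

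Among the 10 largest falls chosen by rule, 8 had at least 14 counts over the 3 DKO libraries. Hba-a1, an adult alpha globin gene, stood at 0.536, 1.2 and 0.375 CPM in DKO and 55.9, 39.8 and 22.3 CPM in Scl KO. The groups were far apart, with a log2 fold change of -5.81 ± 0.44 (edgeR adjusted p = 1.29e-05), although Hba-a1 and Hba-a2 are nearly identical copies between which reads can be split or lost in counting. Rgs8, a regulator of G protein signalling, was at 0.201, 0.299 and 0.437 CPM in DKO, against 9.63, 10.2 and 17.7 CPM in Scl KO. Acer2, an alkaline ceramidase that releases sphingosine from ceramide, was at 1.34, 0.996 and 0.499 CPM in DKO and 45.3, 42.4 and 18.7 CPM in Scl KO. Nefh, the heavy neurofilament subunit, had 0.268, 0.299 and 0.218 CPM in DKO and 9.86, 8.56 and 6.51 CPM in Scl KO. The highest DKO library of Acer2, which came nearest to Scl KO of the 3, was 13.9 times lower than the lowest Scl KO library. Their log2 fold changes were -5.30, -5.23 and -4.97 for Rgs8, Acer2 and Nefh, with edgeR adjusted p-values of 1.04e-05, 2.45e-05 and 7.49e-06. Slfn14, encoding an endoribonuclease whose human mutations cause a platelet disorder, fell to 4.12, 2.92 and 1.47 CPM in DKO, against 96.3, 89.6 and 27.6 CPM in Scl KO. Tex15, a germ cell gene, and Ly6g6c, a small surface protein gene, also fell, by 4.74 and 4.66 on the log2 scale.

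Rxrg, a retinoid X receptor, had 1 read over all DKO libraries and 121 in Scl KO, which puts the depth-corrected ratio of Scl KO to DKO at 135 (95% counting interval 23.8 to 5377). Crhr2, a corticotropin releasing hormone receptor, had 2 reads in DKO and 87 in Scl KO, a ratio of 48.5 (13 to 407). Col1a1, the chain of type I collagen, was at 1.07, 2.46 and 2.03 CPM in DKO and 132, 28.9 and 2.52 CPM in Scl KO. Its Scl KO values ranged over 52.5-fold, with Scl KO 3 barely above the highest DKO library. Of 24 alternative fits 10 did not call it, among them those without Scl KO 1, without any 1 of the DKO libraries, and with the replicate number as a term (edgeR adjusted p = 0.113).

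**Figure D2:**
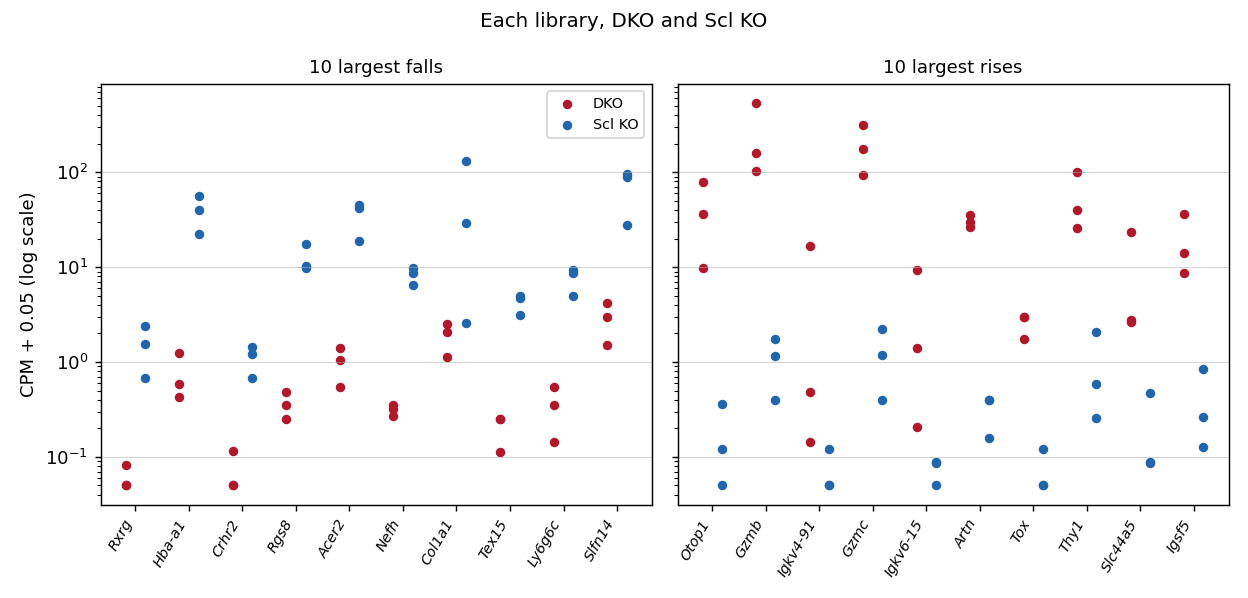
Points are single libraries of DKO (red, left of each pair) and Scl KO (blue, right), with CPM + 0.05 on a log axis, for the 10 largest falls and the 10 largest rises chosen by rule. DKO and Scl KO libraries do not overlap in any of the 20 genes, as the rule required, but Col1a1, Igkv4-91 and Igkv6-15 spread widely within a group.

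The largest rises included genes that were close to absent in Scl KO. Gzmb, encoding the cytotoxic protease granzyme B, stood at 159, 104 and 540.3 CPM in DKO, against 0.348, 1.11 and 1.71 CPM in Scl KO, and Gzmc, encoding granzyme C, at 174, 94.6 and 317 CPM in DKO, against 0.348, 1.14 and 2.2 CPM in Scl KO. The lowest DKO library was 60.5 times the highest Scl KO library for Gzmb and 42.9 times for Gzmc, and DKO 3 was highest in both. The log2 fold changes were 7.96 ± 0.80 for Gzmb and 7.28 ± 0.57 for Gzmc, with edgeR adjusted p-values of 6.91e-05 and 1.42e-05; granzymes form a cluster of similar genes, so reads may be split between them. Of 13 genes tested on the list of lymphoid and cytotoxic cells, 1 rose and 2 fell, beside 8.37% higher and 10.8% lower of all genes. The log2 fold change was negative for 8 of them, and the list median was -0.28. Of its other genes, Cd3e, Cd3g, Cd8a, Gzma, Ncr1 and Klrb1c had too few counts to be tested. Gzmb is also on the list of mast cells and basophils. Of 12 genes tested there, 2 rose, none fell and 10 had a positive log2 fold change. With the replicate number as a term 1 of them rose.

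Artn, a secreted ligand of the GDNF family, rose to 29.7, 26.5 and 35.2 CPM in DKO, against 0.348, 0.107 and 0.35 CPM in Scl KO. Its 3 DKO libraries lay within 1.33-fold of each other, and the log2 fold change was 6.81 ± 0.54 (edgeR adjusted p = 1.5e-05). Otop1, a proton channel, reached 9.68, 36.6 and 78.7 CPM in DKO, against 0, 0.0713 and 0.315 CPM in Scl KO. Thy1, a glycoprotein of T cells, neurons and fibroblasts, was at 26, 39.7 and 100.4 CPM in DKO and 0.542, 2.03 and 0.21 CPM in Scl KO. Otop1 and Thy1 were both highest in DKO 3, and limma-voom, another test, did not call Otop1 (adjusted p = 0.0659).

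Igsf5, an immunoglobulin superfamily adhesion gene, and Slc44a5, a choline transporter-like gene, rose by 5.71 and 5.80 on the log2 scale, Slc44a5 without a call in limma-voom. Tox, a nuclear factor of lymphoid cells, had 232 reads in DKO and 2 in Scl KO, a depth-corrected ratio of DKO to Scl KO of 104 (95% counting interval 28.5 to 863). Igkv4-91 and Igkv6-15, antibody light chain segments, rested mainly on DKO 1, with 16.7, 0.432 and 0.0936 CPM and 9.24, 1.36 and 0.156 CPM in the 3 DKO libraries, and were not called in 9 and 8 of the alternative fits that gave them a value. Without DKO 1, or without any 1 Scl KO library, neither was called, and with the replicate number as a term Igkv4-91 was not (edgeR adjusted p = 0.0751). Outside the rule, and chosen after its values were seen, Jam2, a junctional adhesion molecule, rose to 87.1, 132 and 157 CPM in DKO, against 3.87, 5.6 and 4.69 CPM in Scl KO (log2 fold change 4.73 ± 0.27, edgeR adjusted p = 4.76e-06). Cd59a, a complement inhibitor likewise chosen after its values were seen, fell to 3.42, 3.55 and 3.09 CPM in DKO, against 31.1, 24.9 and 23.1 CPM in Scl KO (log2 fold change -2.97 ± 0.18).

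Promoters of 4 of these genes are printed because Scl and Lyl1 bind E-boxes and their complexes contain GATA factors. Candidates were the largest changes and the genes fixed by name with an entry in the RefSeq promoter set used here. Thbs1 and Nefh had none in that set. The promoters of the 2 candidates with the smallest adjusted p in each direction are given. Each runs 5′ to 3′ on the gene's strand over 300 bases, 250 before and 50 after the annotated start (RefSeq, GRCm38.p6). Capitals mark the E-box letters CANNTG and the GATA letters GATAA, searched on both strands. Gzmc lies at chr14:56234608-56234907 on the minus strand, Artn at chr4:117929714-117930013 on the minus strand, Rgs8 (the first of 3 annotated starts) at chr1:153652787-153653086 on the plus strand, and Hba-a1 at chr11:32283422-32283721 on the plus strand.
Gzmc: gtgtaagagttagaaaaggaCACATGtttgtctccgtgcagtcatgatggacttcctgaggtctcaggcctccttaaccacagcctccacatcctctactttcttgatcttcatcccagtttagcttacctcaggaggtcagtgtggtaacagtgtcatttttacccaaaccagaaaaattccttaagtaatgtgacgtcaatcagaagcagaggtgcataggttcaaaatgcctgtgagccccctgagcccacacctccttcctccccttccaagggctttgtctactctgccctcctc
Artn: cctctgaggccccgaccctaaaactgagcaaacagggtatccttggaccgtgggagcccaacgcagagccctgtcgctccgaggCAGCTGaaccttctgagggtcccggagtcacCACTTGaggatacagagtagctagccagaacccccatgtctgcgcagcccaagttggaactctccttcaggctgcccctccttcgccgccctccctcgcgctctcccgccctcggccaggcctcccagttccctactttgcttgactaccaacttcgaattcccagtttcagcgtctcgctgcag
Rgs8: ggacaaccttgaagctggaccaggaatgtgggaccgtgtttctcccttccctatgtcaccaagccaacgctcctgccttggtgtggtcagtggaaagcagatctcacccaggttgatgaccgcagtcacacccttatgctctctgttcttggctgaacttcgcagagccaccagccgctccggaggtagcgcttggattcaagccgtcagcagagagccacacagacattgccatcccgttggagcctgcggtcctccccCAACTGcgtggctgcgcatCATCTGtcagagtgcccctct
Hba-a1: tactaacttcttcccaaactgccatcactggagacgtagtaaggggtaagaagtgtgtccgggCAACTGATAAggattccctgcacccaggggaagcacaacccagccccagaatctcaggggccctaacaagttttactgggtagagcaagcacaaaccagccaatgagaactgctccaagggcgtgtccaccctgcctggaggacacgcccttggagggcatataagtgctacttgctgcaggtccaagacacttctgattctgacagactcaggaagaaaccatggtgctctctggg

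The Gzmc window held 1 E-box match, those of Artn and Rgs8 held 2 each, and that of Hba-a1 held 1 E-box match whose last letter is the first of a GATAA match. Of the genes with the largest changes, 5 rises and 7 falls had a promoter in the RefSeq set used here. E-box letters were in 5 of these 5 rises and 4 of these 7 falls, beside 72.3% of all 32851 promoters in the RefSeq table. GATAA letters were in 0 of the 5 rises and 3 of the 7 falls, beside 25.4% of all promoters. A match describes letters and is not a binding site.

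Many genes of platelet function fell. Over 7 lists of platelet receptors, their signalling, the proplatelet cytoskeleton and alpha granule cargo, 51 of 89 genes tested (57.3%) fell and 6 (6.74%) rose, beside 10.8% and 8.37% of all genes. The counts of each of these lists below are to be read against the same shares. The lowest DKO value was in DKO 3 for 44 of the 51 genes that fell, and the lowest Scl KO value in Scl KO 3 for 49 of them. In RNA taken from many cells at once, fewer megakaryocytes and less of these RNAs per megakaryocyte cannot be told apart. The medians of these 7 lists were between -0.52 and -1.27 on the log2 scale, and stayed negative on library totals without composition factors (-0.22 to -0.98).

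**Figure D3:**
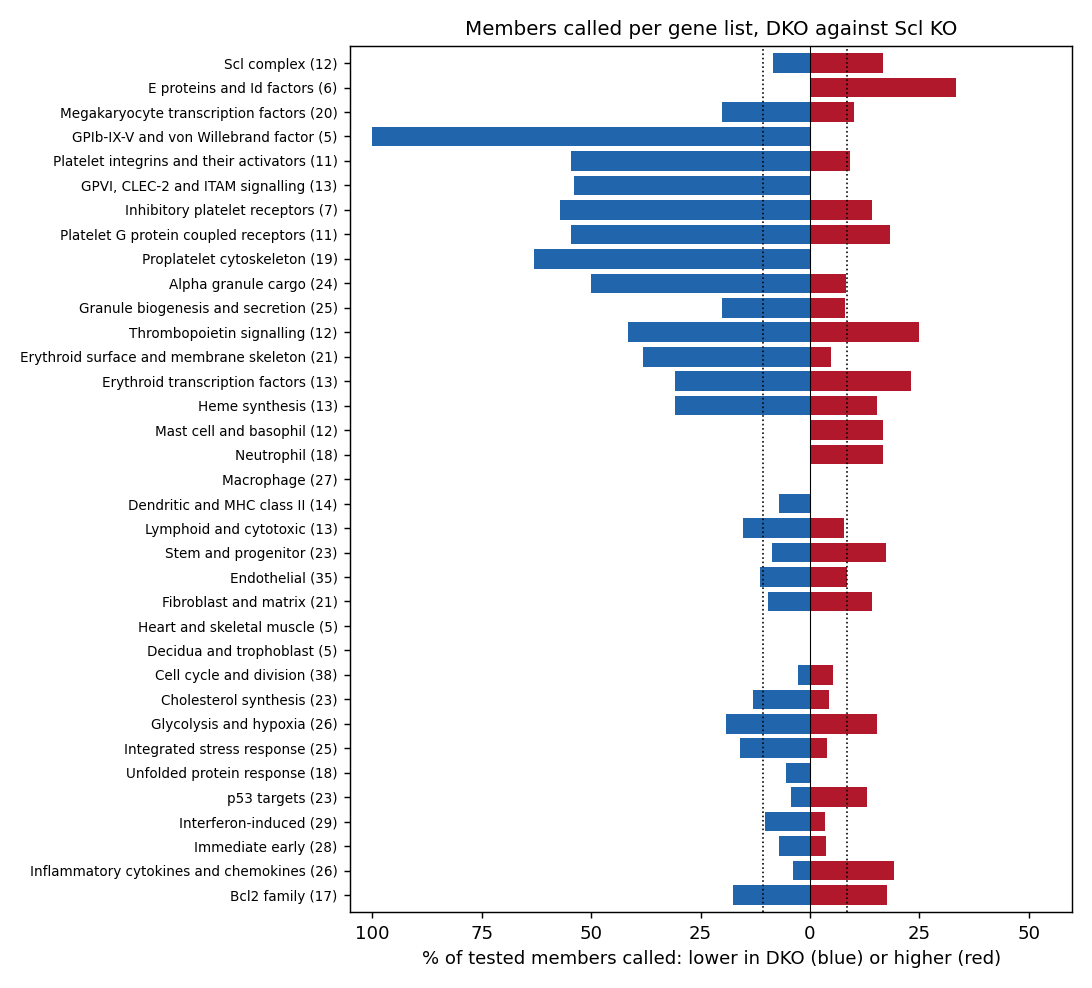
Bars give the percentage of tested members (number in brackets) called lower in DKO (blue, to the left) or higher in DKO (red, to the right) against Scl KO, for lists with at least 5 tested members, and dotted lines mark the 10.8% and 8.37% of all genes. The platelet lists extend farthest to the left. The macrophage list, the heart and skeletal muscle list and the decidua and trophoblast list have no bar.

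The GPIb-IX-V complex, which catches von Willebrand factor on injured vessels, fell as a whole with its ligand: all 5 genes were called lower, with a list median of -1.27 on the log2 scale beside 0.03 for all genes. Gp1bb, the disulphide-linked beta subunit, stood at 291, 188 and 151 CPM in DKO, against 753, 643 and 601 CPM in Scl KO. The groups did not overlap (log2 fold change -1.66 ± 0.21, edgeR adjusted p = 0.00028). Vwf, the ligand, was at 3351, 2542 and 1403 CPM in DKO and 6732, 6466 and 4398 CPM in Scl KO, and Gp5 at 602, 360.1 and 202 CPM in DKO and 1329, 1242 and 899 CPM in Scl KO. In each of these genes DKO 1 was the highest DKO library and DKO 3 the lowest. A fit of the 6 libraries alone called 2 of the 5 genes, with Vwf at an adjusted p of 0.0519.

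Among 11 integrin genes and activators, 6 fell and 1 rose. Itgb3 and Itga2b form the fibrinogen receptor of platelets, and both fell: Itgb3 was at 9155, 7247 and 5279 CPM in DKO and 13868, 13824 and 10540 CPM in Scl KO (log2 fold change -0.82 ± 0.21), and Itga2b had a log2 fold change of -0.67 ± 0.18. Neither was called without Scl KO 1 or without Scl KO 2, nor Itga2b without DKO 2. Itga2, the collagen-binding alpha subunit, fell to 100.2, 53 and 36.7 CPM in DKO, against 296, 287 and 194 CPM in Scl KO, and its highest DKO library was 1.94 times lower than the lowest Scl KO library. Fermt3, encoding kindlin-3, and Tln1, encoding talin, both needed to activate integrins, fell by 1.37 and 0.93. With the 6 libraries alone 3 genes fell, and with only the Xist libraries 10.

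Downstream of the collagen receptor GPVI and of CLEC-2, 7 of 13 genes fell and none rose at this threshold, with 1 higher at an unadjusted p under 0.05, which 32.5% of all genes passed in either direction, and 1 called higher by DESeq2. Fyn, a Src family kinase that phosphorylates the receptor's signalling chain, was at 82, 79.5 and 83.1 CPM in DKO and 175, 167 and 141 CPM in Scl KO. The DKO values were nearly equal and all below Scl KO (log2 fold change -0.98 ± 0.11, edgeR adjusted p = 0.000181). Lyn, another Src family kinase, Btk, a kinase upstream of phospholipase C gamma, and Gp6, the receptor itself, fell by 0.89, 0.75 and 1.58 on the log2 scale. The 6 libraries alone gave 2 calls.

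Of 7 genes for inhibitory receptors and their phosphatases, 4 fell and 1 rose. Mpig6b, an inhibitory receptor of megakaryocytes, stood at 65.2, 33.8 and 13.5 CPM in DKO, against 322, 299 and 177 CPM in Scl KO (log2 fold change -2.83 ± 0.44, edgeR adjusted p = 0.00115). The related phosphatases moved in opposite directions. Ptpn6, encoding Shp1, rose to 116, 167 and 145 CPM in DKO, against 51.7, 53.6 and 60.1 CPM in Scl KO, with no overlap (log2 fold change 1.37 ± 0.18, edgeR adjusted p = 0.000447). Ptpn11, encoding Shp2, fell to 1095, 777 and 607 CPM in DKO, against 1937, 1866 and 1408 CPM in Scl KO (log2 fold change -1.07 ± 0.20).

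Among 11 G protein coupled receptors of platelets, 6 fell and 2 rose. P2ry12, the ADP receptor targeted by antiplatelet drugs, fell furthest, to 8.17, 4.32 and 2.12 CPM in DKO, against 109, 101 and 42.1 CPM in Scl KO. The highest DKO library was 5.15 times lower than the lowest Scl KO library (log2 fold change -4.11 ± 0.49, edgeR adjusted p = 0.000216). The thrombin receptor genes F2rl2 (Par3) and F2rl3 (Par4) fell by 1.78 and 0.89 on the log2 scale. Ptger3, a prostaglandin E2 receptor, rose to 289, 255 and 239 CPM in DKO, against 149.5, 149 and 175 CPM in Scl KO, but was not called without Scl KO 1, without Scl KO 2 or among the libraries with Xist.

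In the list of proplatelet cytoskeleton genes 12 of 19 fell and none rose (0 higher also at an unadjusted p under 0.05 and by DESeq2). Tubb1, the beta tubulin specific to megakaryocytes and platelets, stood at 132, 43 and 17.7 CPM in DKO, against 691, 627 and 286 CPM in Scl KO. Its values spread over 7.48-fold within DKO and did not overlap those of Scl KO (log2 fold change -3.06 ± 0.61, edgeR adjusted p = 0.00441). Sptb, beta spectrin, was tighter, at 73.3, 60.1 and 46.8 CPM in DKO and 456, 423 and 306 CPM in Scl KO (log2 fold change -2.72 ± 0.18, edgeR adjusted p = 7.77e-06). Tuba4a, an alpha tubulin, and Was, an activator of actin branching mutated in Wiskott-Aldrich syndrome, fell by 2.02 and 1.33.

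Alpha granule cargo showed 12 falls and 2 rises among 24 genes. Besides Thbs1, Ppbp, a chemokine precursor and the most abundant RNA of Scl KO, fell to 8690, 4324 and 2782 CPM in DKO, against 18940, 18327 and 12764 CPM in Scl KO (log2 fold change -1.66 ± 0.34). F5, coagulation factor V, and Tgfb1, a growth factor, fell by 1.91 and 1.01, and Pf4, platelet factor 4, by 0.74 on the log2 scale. Vegfa, an angiogenic growth factor, rose to 84, 109 and 69.4 CPM in DKO, against 30.5, 31.5 and 29.6 CPM in Scl KO, with no overlap (log2 fold change 1.52 ± 0.18, edgeR adjusted p = 0.000188).

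Genes that build and release granules were counted as another list. Of 25 tested, 5 fell and 2 rose, beside 10.8% lower and 8.37% higher of all genes, and the list median was 0.04. With a term for the replicate number 7 fell and 5 rose, and on library totals none fell. Slc18a2, the transporter that loads monoamines into dense granules, rose to 448, 629 and 628 CPM in DKO, against 185, 179.9 and 259 CPM in Scl KO. All DKO libraries were above all Scl KO libraries (log2 fold change 1.45 ± 0.18, edgeR adjusted p = 0.000291). Rab38, a small GTPase of granule biogenesis, rose to 97.6, 181 and 204 CPM in DKO, against 40.8, 39.7 and 70.5 CPM in Scl KO.

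Of 12 genes of thrombopoietin signalling, the main cytokine pathway of megakaryocytes, 5 fell and 3 rose, beside 8.37% higher and 10.8% lower of all genes, and the 6 libraries alone gave 3 lower and 1 higher. Sh2b3, an adaptor that restrains the pathway, stood at 87.8, 71 and 57.6 CPM in DKO, against 319, 272 and 191 CPM in Scl KO (log2 fold change -1.85 ± 0.22, edgeR adjusted p = 0.000247). Cish, a feedback inhibitor induced by Stat5, rose to 36.7, 33.1 and 54.5 CPM in DKO, against 14.5, 13.4 and 16.6 CPM in Scl KO.

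**Figure D4:**
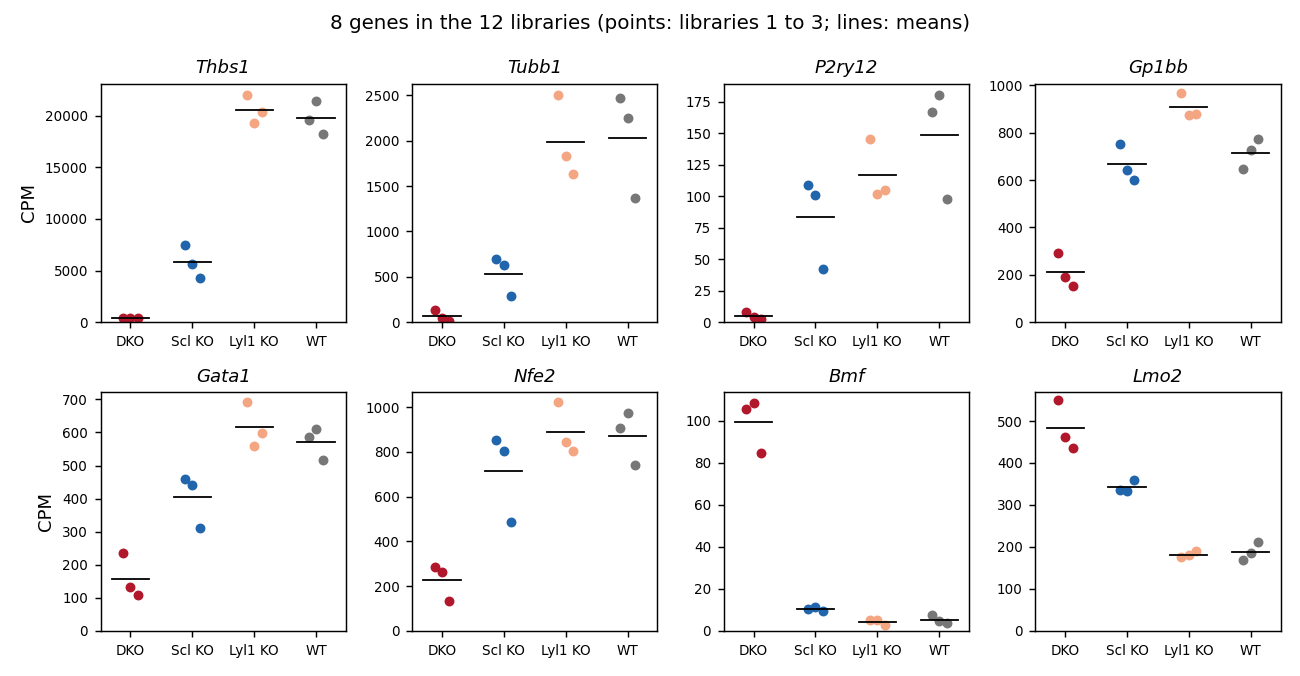
CPM (vertical axes, from 0) of 8 genes in each library of DKO, Scl KO, Lyl1 KO and WT, with a line at each group's mean. Thbs1 and Tubb1 are lowest in DKO and lower in Scl KO than in WT, whereas Gp1bb and Nfe2 are low mainly in DKO, and Bmf and Lmo2 are highest in DKO.

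Transcription factors of the lineage moved in both directions: 4 of 20 fell and 2 rose, beside 10.8% lower and 8.37% higher of all genes, with a list median of -0.25 that turned to 0.06 on library totals. With a term for the replicate number 6 fell and 3 rose. Gata1, the master regulator of erythroid and megakaryocyte maturation, stood at 234, 132 and 107 CPM in DKO, against 461, 441 and 311 CPM in Scl KO (log2 fold change -1.36 ± 0.25, edgeR adjusted p = 0.003). Nfe2, required for platelet release, was at 286, 263 and 135 CPM in DKO and 853, 804 and 488 CPM in Scl KO, and Fli1, an Ets factor, at 164, 136 and 103 CPM in DKO and 294, 302 and 207 CPM in Scl KO. In all 3 genes every DKO library was below every Scl KO library, and DKO 3 was the lowest.

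Gata2, which precedes Gata1 in progenitors, overlapped between the groups at 13.3, 25.6 and 24.2 CPM in DKO and 30.5, 24.8 and 15.8 CPM in Scl KO (edgeR adjusted p = 0.694). Runx1, a core blood factor, stood at 169, 215 and 155 CPM in DKO and 145, 154 and 151 CPM in Scl KO, with no overlap but without passing the test (edgeR adjusted p = 0.194); on library totals it did (edgeR adjusted p = 0.0154).

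In the list of the Scl complex, 2 of 12 genes tested rose and 1, Lyl1 itself, fell, beside 8.37% higher and 10.8% lower of all genes. The 6 libraries alone gave 1 rise and no fall. Lmo2, the bridging protein of the complex, rose to 549, 462 and 436 CPM in DKO, against 336, 334 and 360.0 CPM in Scl KO (log2 fold change 0.49 ± 0.11, edgeR adjusted p = 0.0107). Ssbp2, which stabilises Ldb1, was at 61.6, 56.3 and 60.5 CPM in DKO and 45.2, 42.8 and 45.4 CPM in Scl KO, and the E protein gene Tcf12 at 112, 103 and 129 CPM in DKO and 85.8, 82.2 and 88.2 CPM in Scl KO. These 3 genes had non-overlapping groups and small rises, of 0.42 and 0.43 on the log2 scale for Ssbp2 and Tcf12. Without Scl KO 2 none of the 3 was called, nor Ssbp2 and Tcf12 without Scl KO 1 or DKO 3, nor Ssbp2 without DKO 1, and among the libraries with Xist neither Lmo2 nor Ssbp2 was called.

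Red cell genes were measured as 5 lists. Of 4 adult globin genes tested 2 fell, of 4 embryonic globin genes 1 fell, and none of either rose; of 13 erythroid transcription factors 4 fell and 3 rose, beside 8.37% higher and 10.8% lower of all genes. Embryonic globins summed to 10.5 to 78.5 CPM in DKO and 37.8 to 135 CPM in Scl KO, and Klf1, Alas2, Slc4a1 and Hba-x had too few counts to be tested. Hbb-bt, an adult beta globin gene, stood at 181, 108 and 15 CPM in DKO and 458, 84.5 and 243 CPM in Scl KO, with overlapping ranges (edgeR adjusted p = 0.199), and was called lower among the libraries with Xist alone (edgeR adjusted p = 0.0177). Of 21 genes of the red cell surface and membrane skeleton tested, 8 fell and 1 rose. The 8 include Sptb, which is also counted among the proplatelet genes above. The list summed to 1024 to 1599 CPM in DKO and 2576 to 3329 CPM in Scl KO. Epor, the erythropoietin receptor, fell to 37.9, 22.1 and 15.8 CPM in DKO, against 129, 117 and 77.4 CPM in Scl KO (log2 fold change -2.09 ± 0.28, edgeR adjusted p = 0.000415), and Epb41, protein 4.1, by 1.12 on the log2 scale. Tmcc2, a gene of red cells and megakaryocytes, was at 1.41, 0.797 and 1.09 CPM in DKO and 3.67, 3.21 and 3.53 CPM in Scl KO, against 157 ± 12.2 CPM in Lyl1 KO and 112 ± 15.5 CPM in WT (SD, n = 3 each). It was thus low in both groups without Scl, and lower in DKO than in Scl KO (log2 fold change -1.66 ± 0.19).

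Of 13 heme synthesis genes tested 4 fell and 2 rose, beside 8.37% higher and 10.8% lower of all genes, and the 6 libraries alone gave 2 lower and 1 higher. Alad, an early enzyme of the pathway, rose to 15.6, 15.5 and 16.7 CPM in DKO, against 6.73, 7.67 and 9.59 CPM in Scl KO. The groups did not overlap (log2 fold change 0.99 ± 0.19, edgeR adjusted p = 0.00406).

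Markers of other blood cells were measured beside these changes. None of 27 macrophage genes was called (2 were lower at an unadjusted p under 0.05, DESeq2 called 1 lower, and the 6 libraries alone 3 lower). The log2 fold change was negative for 24 of them, and 10 of the 27 had all DKO libraries below all Scl KO libraries, beside 16.9% of all genes. The list summed to 5699 to 6564 CPM in DKO and 6124 to 8409 CPM in Scl KO. Lyz2, lysozyme, was at 2563, 2596 and 2861 CPM in DKO and 2749, 3194 and 3620 CPM in Scl KO, and Csf1r, the macrophage growth factor receptor, at 78.7, 94.4 and 113 CPM in DKO and 123, 129 and 144 CPM in Scl KO. Neither passed the test, and with the replicate number as a term 2 macrophage genes fell.

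Neutrophil genes summed to 512 to 1262 CPM in DKO and 300.1 to 508 CPM in Scl KO. Of 18 genes 3 rose (3 higher, 0 lower), beside 8.37% of all genes, and 7 rose with the replicate number as a term. The log2 fold change was positive for 16 and negative for 2 of them, with a list median of 0.93. For 7 of the 18 all DKO libraries lay above all Scl KO libraries, beside 16.5% of all genes. S100a8, a calcium-binding protein of neutrophils, stood at 167, 239 and 81.4 CPM in DKO and 69.7, 77.5 and 43.8 CPM in Scl KO. DKO 2 was highest and DKO 3 lowest. The gene lost its call without DKO 1, without DKO 2, without Lyl1 KO 3 and without any 1 Scl KO library, and no neutrophil gene was called among the libraries with Xist alone or with presence of Y-linked transcripts as a term. The part of these cells in the platelet gene changes was not tested.

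Rag1, needed for antigen receptor rearrangement, had 0 reads in DKO and 58 in Scl KO, so that it was at least 21.6-fold higher in Scl KO when DKO is set at 3 counts over the group; it was not called among the libraries with Xist. Kit, the stem cell factor receptor, was called by a narrow margin, at 5.26, 7.14 and 16.6 CPM in DKO and 4.87, 4.1 and 3.67 CPM in Scl KO (edgeR adjusted p = 0.0497), and 17 of 24 alternatives did not call it, among them the fit with the replicate number as a term (edgeR adjusted p = 0.0750). It was not called without DKO 2, without DKO 3 or without any 1 Scl KO library. Slamf1 (CD150), a surface protein of stem cells and megakaryocytes, fell to 79.1, 31.9 and 19 CPM in DKO, against 446, 410.4 and 264 CPM in Scl KO (log2 fold change -3.11 ± 0.42, edgeR adjusted p = 0.00051). Mecom, a stem cell transcription factor, rose to 1.44, 4.55 and 2.81 CPM in DKO, against 0.425, 0.82 and 0.455 CPM in Scl KO. Of 23 stem and progenitor genes tested 4 rose and 2 fell, beside 8.37% higher and 10.8% lower of all genes. The log2 fold change was positive for 14 and negative for 9 of them, with a list median of 0.24.

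Among 35 endothelial genes 3 rose and 4 fell, beside 8.37% higher and 10.8% lower of all genes. The log2 fold change was negative for 26 of them, with a list median of -0.57. The list summed to 2274 to 4348 CPM in DKO and 5609 to 8215 CPM in Scl KO. It includes Vwf and Fli1, which are also described above. Vwf made up most of the sum in each DKO and Scl KO library. In Scl KO it averaged 5865 CPM, where the whole list averaged 7233 CPM. The difference in the sums thus mostly repeats the fall of Vwf. Lyve1, a hyaluronan receptor of lymphatic vessels, yolk sac endothelium and macrophages, fell to 2.95, 2.03 and 1.31 CPM in DKO, against 16.8, 18.7 and 10.4 CPM in Scl KO (log2 fold change -2.87 ± 0.33, edgeR adjusted p = 0.000188). Pecam1, shared by endothelium and platelets, was at 260.2, 231 and 167 CPM in DKO and 386, 338 and 254 CPM in Scl KO without passing the test (edgeR adjusted p = 0.06), though it did with the replicate number as a term (edgeR adjusted p = 0.00357). Of 21 fibroblast and matrix genes 3 rose and 2 fell, and with the replicate number as a term 2 rose and none fell. The log2 fold change was negative for 16 of the 21, with a list median of -1.14, DESeq2 gave 2 rises and 5 falls, and at an unadjusted p under 0.05 there were 3 higher and 10 lower. Among the called genes, Vcan, the matrix proteoglycan versican, rose to 127, 203 and 618 CPM in DKO, against 24, 22.9 and 67.2 CPM in Scl KO, and Fbn2, fibrillin 2, to 44.8, 73.5 and 67.6 CPM in DKO, against 9.86, 11.8 and 29.4 CPM in Scl KO.

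The Bcl2 family, which sets the threshold for cell death and limits platelet life span, held changes in both directions: 3 rose and 3 fell of 17 tested, beside 8.37% higher and 10.8% lower of all genes. Bmf, which promotes cell death, rose to 106, 108 and 84.7 CPM in DKO, against 10.6, 11.5 and 9.27 CPM in Scl KO. The lowest DKO library was 7.35 times the highest Scl KO library (log2 fold change 3.25 ± 0.27, edgeR adjusted p = 2.42e-05). Bcl2l1, whose product Bcl-xL keeps platelets alive, fell to 138, 111 and 99.6 CPM in DKO, against 258, 243 and 200.3 CPM in Scl KO (log2 fold change -1.01 ± 0.13), while Bcl2, another survival factor, rose to 111, 95.8 and 111 CPM in DKO, against 49.6, 52 and 47.8 CPM in Scl KO (log2 fold change 1.09 ± 0.13).

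Of 38 genes of cell division 2 rose and 1 fell, beside 8.37% higher and 10.8% lower of all genes, and the next 4 lists are to be read against the same shares. Cdkn1a, the cell cycle inhibitor p21, rose to 239.9, 283 and 249.8 CPM in DKO, against 94.5, 77.2 and 132 CPM in Scl KO, and Cenpa, a centromere histone, rose by 1.36 on the log2 scale. Cdkn1a was not called without DKO 2, DKO 3, Scl KO 1 or Scl KO 2, nor among the libraries with Xist. Of 25 genes of the integrated stress response 1 rose and 4 fell, among them Atf5 (log2 fold change -1.25 ± 0.13, edgeR adjusted p = 0.00011). Of 29 interferon-induced genes 3 fell and 1 rose: Ifit1 was at 2.31, 1.56 and 1.4 CPM in DKO and 16.4, 13.9 and 7.87 CPM in Scl KO. Of 26 cytokine and chemokine genes 5 rose and 1 fell, including Il1b, encoding interleukin 1 beta, at 60.1, 109 and 31.7 CPM in DKO and 20.8, 21.9 and 22.2 CPM in Scl KO, which was not called among the libraries with Xist. Of 26 genes of glycolysis and the hypoxia response 4 rose and 5 fell, and the 6 libraries alone gave 1 higher and 3 lower. Ndrg1, a stress-responsive gene, was among the falls (log2 fold change -1.88 ± 0.23).

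Genes beside Lyl1 on chromosome 8 were also counted apart from the rest. Of 70 genes within 2 Mb of Lyl1, 19 (27.1%) were called, 6 higher and 13 lower, beside 22.4% of genes 2 to 10 Mb away and 16.5% of those farther along chromosome 8. In Lyl1 KO against WT, a comparison with no library in common, 9 of the 70 were called (12.9%), beside 0.0714% of all genes. Of the 19 genes 15 had the same sign there.

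Adgrl1, an adhesion receptor gene 0.801 Mb before Lyl1, stood at 11.4, 7.3 and 13.2 CPM in DKO, against 91.4, 102 and 99.8 CPM in Scl KO; with Scl present, the Lyl1 KO libraries held 8.06, 11.4 and 12.1 CPM and the WT libraries 53.4, 63.5 and 75.4 CPM. Phkb, a phosphorylase kinase subunit 1.14 Mb after it, was at 195, 167 and 121 CPM in DKO and 65.5, 65.8 and 61.3 CPM in Scl KO, and at 163, 144 and 149.9 CPM in Lyl1 KO and 56.4, 60.4 and 59.5 CPM in WT. The log2 fold changes were -3.20 ± 0.22 in DKO over Scl KO and -2.61 ± 0.22 in Lyl1 KO over WT for Adgrl1, and 1.33 ± 0.14 and 1.37 ± 0.14 for Phkb, and the interaction did not pass the test (edgeR adjusted p = 0.244 and 0.928). Prdx2, a peroxiredoxin abundant in red cells, differed in sign: it fell to 45.3, 45.5 and 40.1 CPM in DKO, against 63.6, 62 and 69.3 CPM in Scl KO, and rose in Lyl1 KO to 159.9, 156 and 158 CPM, set beside 65.9, 63.7 and 67.6 CPM in WT, though on library totals it was not called lower in DKO. Among libraries with Xist alone 11 of the genes within 2 Mb were called.

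**Figure D5:**
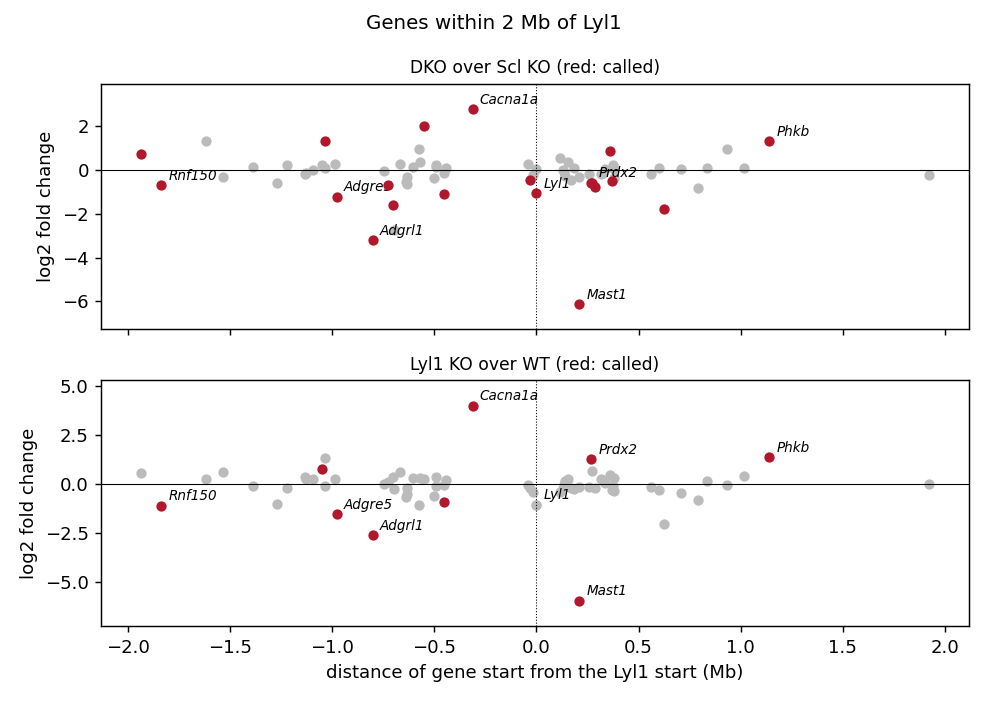
Each point is a gene within 2 Mb of Lyl1, placed by the distance of its start from that of Lyl1 (horizontal axis, Mb) and its log2 fold change (vertical axes) in DKO over Scl KO (upper panel) and in Lyl1 KO over WT (lower panel), with called genes in red. Adgrl1 and Mast1 are low and Phkb and Cacna1a are high in both panels, and Prdx2 is on opposite sides of 0.

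With Scl in place, few genes passed the test for the loss of Lyl1. Lyl1 KO against WT gave 11 called genes of 15399, with 1230 (7.99%) at an unadjusted p under 0.05. Sex-linked marks were unequal here too, with Y-linked transcripts at 189 CPM and Xist at 1.79 CPM in Lyl1 KO 3. Lyl1 KO 1 and 2 and every WT library carried Xist, at 356 to 671 CPM. Of the 1289 genes that rose in DKO against Scl KO, 50.7% were higher in Lyl1 KO than in WT, beside 49.5% of all genes. Of the 1658 genes that fell, 44.8% were lower in Lyl1 KO than in WT, beside 50.4% of all genes. The test of the difference between both effects of Lyl1 loss, the interaction, called 1444 genes (9.38%), 541 of them positive (3.51%) and 903 negative (5.86%). Without Lyl1 KO 1 it called 671 genes, without Lyl1 KO 2 936, without Lyl1 KO 3 911, without DKO 2 888, without Scl KO 1 684 and without Scl KO 2 740, whereas DESeq2 called 2261 and library totals 2461. With the presence of Y-linked transcripts as a term it called 1371.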

How the data were processed

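RNA-seq libraries (TruSeq stranded mRNA) were made from pooled embryos, both per the labels. Reads were aligned with STAR 2.5.2b and counted per gene with featureCounts 1.5.2 on the reverse strand against Ensembl 87 (GRCm38). These steps are given by the file header and the submitters' processing notes. The authors deposited raw counts per gene, and the table holds 49671 genes. Of these, 15399 passed edgeR's filter (filterByExpr by group). The recorded command sets no option to count reads that map to several places, which lowers genes with near-identical copies.

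DKO was tested against Scl KO with edgeR 4.0.16 (R 4.3.3; quasi-likelihood F-test, robust, TMM scaling), with all 12 libraries and the group as the only term, adjusted over all genes by Benjamini-Hochberg. A gene was called at an adjusted p under 0.05. Levels are CPM on TMM-scaled library sizes, errors of log2 fold changes are SE, and count ratios carry exact 95% intervals that cover counting error only. DESeq2 1.42.0 and limma 3.58.1 (voom) served as alternatives. The scripts were tested on simulated counts. No 2 replicates of a group were alike within sampling noise (chi-square test of counts).

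The labels give the same replicate numbers in each group. Deviations from the group means of same-numbered DKO and Scl KO libraries correlated at 0.297, 0.182 and 0.523 across genes. DKO 1 correlated at 0.304 with Scl KO 2, and DKO 2 at 0.176 with Scl KO 1. Replicate 3 of either group correlated at -0.42 to -0.25 with replicates 1 and 2 of the other. The deviations of a group's libraries cancel out for each gene, so these negative values follow largely from the positive ones and add little to them. The values thus set replicate 3 apart but do not pair replicates 1 and 2 by number. The labels give no pairing, and the main test uses none. Fits with the replicate number as a term are alternatives.

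Genes were named by rule: both targeted genes; the 10 largest rises and 10 largest falls among called genes with a mean of at least 1 CPM in the higher group, no overlap between groups, more than 10 Mb from Lyl1, and neither Y-linked, Xist, a predicted gene nor a pseudogene; called genes within 2 Mb of Lyl1; up to 4 called members per list by adjusted p; and 20 genes fixed by name. The comparison, the lists and this rule were chosen with earlier results of these data known, and Jam2 and Cd59a were added after their values were seen. Results of some genes that the rule names are not reported here.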

Additional observations from a re-analysis of the deposited data

Results flagged for a closer look

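The effect of Lyl1 loss without Scl (DKO minus Scl KO) was set against its effect with Scl (Lyl1 KO minus WT), and 62 of the 96 genes named by rule or after seeing their values that appear above differed between them, by the edgeR interaction test at an adjusted p under 0.05. Most of these genes were chosen by their change in DKO against Scl KO, which the interaction contains, so their share is set by that choice and is no result beside the 9.38% of all genes called. Of the 62 genes, 47 were negative, meaning that the fold change on Lyl1 loss was lower without Scl than with it, and 15 were positive. The count over all genes fell to 671, against 1444, without Lyl1 KO 1. All values here are differences of log2 fold changes.

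Among the largest changes, the interaction was 8.45 for Gzmb, 7.02 for Artn, 5.77 for Tox, 7.61 for Thy1 and 4.75 for Jam2. Of the largest falls it was -3.94 for Rxrg, -6.12 for Hba-a1, -6.23 for Crhr2, -5.25 for Rgs8, -5.19 for Acer2, -5.39 for Nefh, -4.74 for Tex15, -4.42 for Ly6g6c, -4.21 for Slfn14 and -2.86 for Cd59a. Fitted values of Tox, Rxrg, Crhr2 and Gzmb rest on few counts in at least 1 of the 4 groups and depend on the prior count.

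Surface receptors of platelets gave -2.01 for Gp1bb, -1.71 for Gp5, -1.36 for their ligand Vwf, -2.09 for Itga2, -3.77 for P2ry12, -1.98 for F2rl2, -1.19 for F2rl3 and -2.65 for Mpig6b. Their signalling genes gave -1.45 for Fermt3, -0.99 for Tln1, -0.92 for Fyn, -0.90 for Lyn, -1.13 for Ptpn11, -1.75 for Sh2b3, and, with a positive sign, 1.28 for Ptpn6 and 1.61 for Cish. Cytoskeletal and granule genes gave -3.03 for Tubb1, -2.81 for Sptb, -1.30 for Was, -2.17 for Tuba4a, -3.89 for Thbs1, -1.78 for Ppbp, -0.94 for Pf4, -2.01 for F5, -1.12 for Tgfb1, 1.54 for Vegfa and 1.23 for Slc18a2.

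Transcription factors gave -1.47 for Gata1, -1.68 for Nfe2, -0.90 for Fli1 and 3.35 for Mecom. Red cell genes gave -4.94 for Hba-a2, -2.14 for Tmcc2, -2.16 for Epor and -1.26 for Epb41, and the neighbour of Lyl1, Prdx2, -1.84. The rest were -3.09 for Slamf1, -2.24 for Lyve1, 3.73 for Vcan, 2.65 for Fbn2, 3.56 for Bmf, 1.41 for Bcl2, -1.21 for Bcl2l1, 1.46 for Cenpa, -2.14 for Ndrg1, -1.61 for Atf5 and -3.41 for Ifit1. Lyl1 itself had an interaction of -0.02 that did not pass the test (edgeR adjusted p = 0.984).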

How the results depend on the processing

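Across 24 alternatives, no gene named by rule reversed its sign past the threshold: of 3749 pairs of a gene and an alternative, 3414 kept their side of it, 313 lost the call and 22 gained it. The 6 libraries alone called 1742 genes (806 up, 936 down), with Lyl1 at -1.04 (edgeR adjusted p = 0.0545). A term for Y-linked transcripts left 797 genes up, and the libraries with Xist alone, where the lone DKO library is assumed to vary like the other groups, left 750 up and 11 called within 2 Mb of Lyl1. Library totals without scaling factors, an alternative chosen after seeing the data, called 4834 genes (3840 up, 994 down) and 2461 interactions, and 25 genes called in the TMM fit changed sign. DESeq2 called 2261 interactions. Leaving out 1 library at a time, including Lyl1 KO and WT libraries (chosen after seeing the data), gave 1645 to 3222 genes called, 621 to 1333 up, 1024 to 1889 down, 671 to 1925 interactions, 15 to 22 genes within 2 Mb of Lyl1, and Lyl1 at -1.28 to -0.85. The cause of these shifts was not tested.

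With the replicate number as a block, 3722 genes were called (1694 up, 2028 down), with 2100 interactions, 21 genes near Lyl1 and Lyl1 at -1.06 (edgeR adjusted p = 0.000745). The block in the 6 libraries alone (chosen after seeing the data) gave 2012 genes up and called Csf1r. Of the genes in the report, the block in all 12 libraries ended the calls of Igkv4-91, Col1a1 and Kit, gained that of Pecam1, and changed no other call of a gene described there. Depth limits genes such as Rxrg, Crhr2, Tox and Rag1, which had 0 to 2 counts in 1 group.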
